A study of Mus musculus with 2 samples.

Results

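The genes described here are the numbered members of the RNF and TRIM families, most of which encode ubiquitin ligases with a RING domain, in MC3T3-E1 cells, a clonal pre-osteoblast line from mouse calvaria. The cells had been exposed to formaldehyde, an aldehyde that crosslinks protein to DNA, at a dose of 100 µM (1 library) or 300 µM (1 library), so both groups received it. The labels give no length of exposure and no replicate, and unexposed cells were not analysed here. No difference below could be set against a spread between cultures, no p-value is given, and in bulk RNA fewer cells of a type and less RNA per cell cannot be told apart. Members were chosen by symbol (Rnf or Trim followed by a number) and selected on their measured level: the average of both libraries had to reach 1 FPKM. FPKM is a fragment count divided by transcript length and by the library's mapped fragments. Below, a pair of values is always in FPKM, first the lower and then the higher dose, and the number in brackets after it is the log2 ratio defined further on. Of 17215 genes listed, 140 carried such a symbol, and 80 of these passed: 51 of 76 RNF genes and 29 of 64 TRIM genes.

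Ubiquitin is passed from an activating enzyme (E1) to a conjugating enzyme (E2) and then to a substrate that a ligase (E3) has bound. RING ligases hold the charged E2 and the substrate together, so the ligase decides which protein is marked. RNF symbols were given to proteins for the RING domain alone and cover unrelated ligases at membranes, on chromatin and in the cytosol. TRIM proteins share a RING, B-box and coiled-coil module at the start of the protein, followed by a variable end, and many act in antiviral signalling. In bone cells, ligases of these families are known to act on the TGF-beta, BMP and Wnt pathways. Not every member is a RING protein: Trim16 and Trim44 carry B-boxes but no RING.

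The cell line's own markers fit its label in part. Of 8 osteoblast genes, 7 passed the level filter and 0 reached 2-fold by the ratio defined below. Col1a1 stood at 2065 and 1714 FPKM, and the lineage factor Runx2 at 7.99 and 3.60 FPKM, which is past 2-fold in FPKM itself. Bglap (osteocalcin) was listed at 0 and 0.49 FPKM. Markers of adipocytes, muscle, endothelium and epithelium summed to at most 0.87 FPKM per list in either library. The chondrocyte gene Col2a1 stood at 322 and 350 FPKM with Acan and Matn1 at 0 in both and Sox9 at 61.4 and 9.78 FPKM. Of 5 macrophage and blood cell genes Lyz2 (13.2 and 26.5 FPKM) and Cd68 (2.57 and 0.77 FPKM) passed the filter, Ptprc (CD45) was at most 0.05 FPKM and Adgre1 was at 0. Their part in the results below was not tested. Steps in the low values put the libraries at about 1.85e+07 fragments for the lower dose and 1.90e+07 for the higher.

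Promoters are shown for the furthest member in each direction of each family, among the 48 compared members with a single promoter in the RefSeq table (assembly GRCm38.p6), which holds 65 of the 80. Each runs from 250 bases before to 50 bases after the annotated start, 5′ to 3′ on the gene's strand. Rnf169 (chr7:99980409-99980708, minus strand) and Trim32 (chr4:65604736-65605035, plus strand) stood lower at 300 µM, and Rnf13 (chr3:57735807-57736106, plus strand) and Trim12a (chr7:104315446-104315745, minus strand) stood higher. Capitals mark matches on either strand to 8 motifs. The core promoter motifs were the TATA box, searched as TATAAA, and the CCAAT box, searched by the letters of its name. The GC box, where Sp1 family factors bind, was searched as GGGCGG, and the motif of ETS factors as CCGGAAG. The motif of AP-1 was searched as TGANTCA, and the cAMP response element as TGACGTCA. The antioxidant response element was searched as TGACNNNGC, and the interferon-stimulated response element as GAAANNGAAA.
Rnf169: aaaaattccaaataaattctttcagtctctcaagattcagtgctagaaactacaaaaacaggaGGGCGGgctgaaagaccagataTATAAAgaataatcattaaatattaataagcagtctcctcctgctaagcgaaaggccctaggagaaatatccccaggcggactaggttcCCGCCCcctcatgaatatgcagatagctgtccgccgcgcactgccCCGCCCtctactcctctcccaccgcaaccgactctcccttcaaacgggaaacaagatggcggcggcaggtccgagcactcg
Trim32: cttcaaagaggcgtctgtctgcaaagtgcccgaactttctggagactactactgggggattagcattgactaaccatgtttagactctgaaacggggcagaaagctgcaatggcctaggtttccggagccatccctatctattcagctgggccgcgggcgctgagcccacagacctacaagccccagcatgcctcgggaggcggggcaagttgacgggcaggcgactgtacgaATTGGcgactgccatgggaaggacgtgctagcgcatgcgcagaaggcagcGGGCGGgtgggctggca
Rnf13: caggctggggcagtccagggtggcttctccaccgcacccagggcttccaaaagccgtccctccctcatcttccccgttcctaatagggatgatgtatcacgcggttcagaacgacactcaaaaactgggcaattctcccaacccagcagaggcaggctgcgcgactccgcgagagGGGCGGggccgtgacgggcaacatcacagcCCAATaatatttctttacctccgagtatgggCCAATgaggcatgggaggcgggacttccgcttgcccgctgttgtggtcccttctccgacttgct
Trim12a: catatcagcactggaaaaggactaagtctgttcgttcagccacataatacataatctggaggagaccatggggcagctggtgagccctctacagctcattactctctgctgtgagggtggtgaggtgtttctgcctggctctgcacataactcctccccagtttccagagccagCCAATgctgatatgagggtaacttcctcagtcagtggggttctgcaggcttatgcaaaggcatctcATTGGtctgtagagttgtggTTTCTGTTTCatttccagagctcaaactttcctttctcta

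The Rnf169 promoter held 3 GC boxes and 1 TATA box, that of Rnf13 2 CCAAT boxes and 1 GC box, that of Trim12a 2 CCAAT boxes, and that of Trim32 1 CCAAT box and 1 GC box. Trim12a alone of these 4 held an interferon-stimulated response element, and it had 1 CpG where the others had 15 to 18. The GC box was in 72.3% of the 47 promoters of members that were at least 2-fold lower, in 66.7% of the 42 promoters of the other members and in 35.7% of all 32851 promoters of that length. The ETS motif was in 25.5%, 16.7% and 8.86% respectively, and the AP-1 motif in 2.13%, 9.52% and 7.81%. These shares count promoters and not genes: of the 65 members with a promoter, 48 had 1 and the others more. Member promoters as a whole were rich in CpG, with a median of 20 per 300 bases against 7 over all promoters. The members had passed the level filter, whereas the 32851 promoters were not chosen by level. These contrasts are therefore not with other genes at a like level, for which no values were computed. The letters of the antioxidant and AP-1 motifs can overlap, and a match is a description of these letters, not of a bound site.

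The RNF and TRIM genes stood lower at 300 µM in similar shares. Each gene's ratio was taken as log2 of (FPKM + 1) at the higher dose over (FPKM + 1) at the lower, which understates differences of low genes, and a gene was counted where this ratio reached 1 or -1, that is 2-fold. Of 51 RNF genes, 28 stood 2-fold or more lower and 0 as much higher (54.9% lower). Of 29 TRIM genes, 16 were lower and 0 higher (55.2% lower). Of the 10123 genes that passed the same level filter, 29.8% were lower and 6.09% higher by this measure. The median log2 ratio was -1.16 for RNF and -1.15 for TRIM, against -0.30 for all genes compared. The ratios ran from -2.92 to 0.98 in RNF and from -3.00 to 0.67 in TRIM, and 44 of 51 and 25 of 29 were below 0.

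The counts moved with the scale. After subtraction of the median gene's ratio, 23 RNF and 12 TRIM genes were lower and 1 RNF gene (Rnf5) was higher, beside 22.3% lower and 14.5% higher over all genes. With both libraries set to equal sums of FPKM, 33 RNF and 17 TRIM genes were lower and 0 higher, beside 38.0% lower and 2.16% higher over all genes. The level filter takes in genes that pass through a single library: 3 RNF and 6 TRIM genes were below 1 FPKM at 300 µM, and 1 TRIM gene (Trim30a, 0.99 FPKM) was below it at 100 µM.

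**Figure D1:**
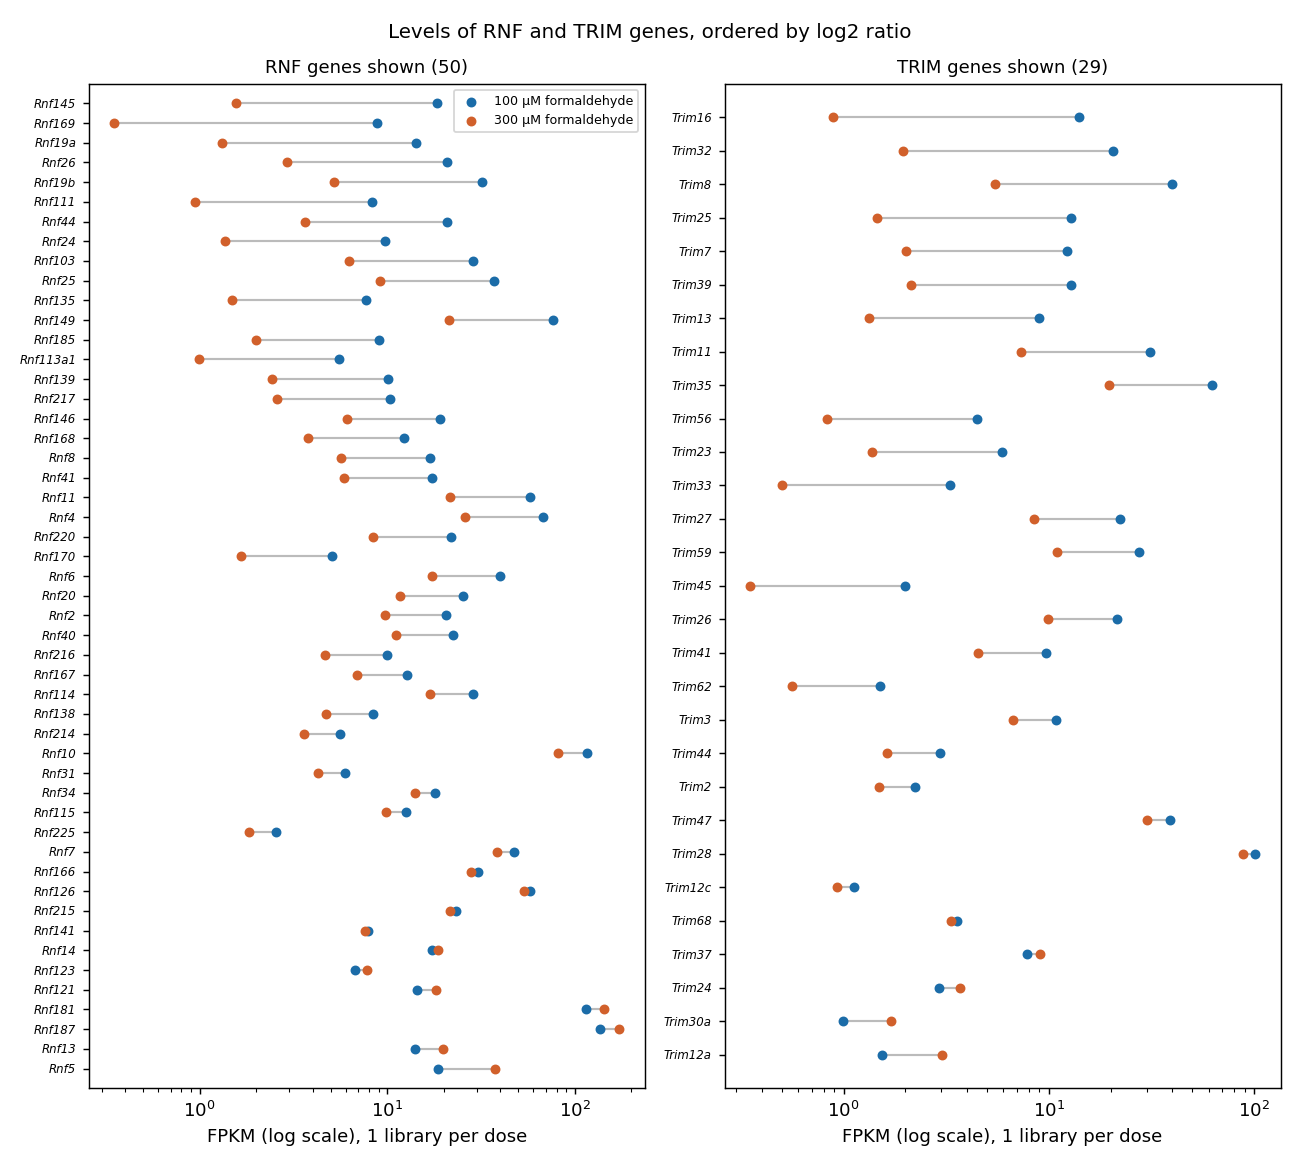
FPKM on a log axis of 50 of the 51 RNF genes and the 29 TRIM genes at 100 µM (blue) and 300 µM (orange), 1 library per dose, with a line joining the 2 values of a gene and genes ordered by log2 ratio. Most orange points lie to the left of the blue ones; 7 RNF and 4 TRIM genes at the foot of the panels have them to the right.

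A few genes held a larger part of the summed RNF and TRIM levels at the higher dose. RNF genes summed to 1361 and 909 FPKM, and TRIM genes to 487 and 229 FPKM. As a share of all summed FPKM, RNF stood at 0.255% and 0.131%, and TRIM at 0.0914% and 0.0332%. The 3 most abundant RNF genes, Rnf187, Rnf181 and Rnf10, held 26.9% of the RNF sum at 100 µM and 43.7% at 300 µM. The 3 most abundant TRIM genes, Trim28, Trim35 and Trim47, together held 41.5% and 60.1% of the TRIM sum. Trim35 did not share in this, at 62.3 and 19.6 FPKM. At 100 µM, 36 RNF and 14 TRIM genes reached 10 FPKM, and at 300 µM 19 and 4 did. Across the 51 RNF genes, Spearman's rho between the 2 libraries was 0.76, and across the 29 TRIM genes 0.68, over genes that share both libraries and are not replicates.

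Of the 18 members that averaged 20 FPKM or more, 7 (38.9%) were at least 2-fold lower, beside 14.5% of all genes at that level. The most abundant, Rnf187, Rnf181, Rnf10 and Trim28, lay between -0.51 and 0.35. Rnf187, a coactivator of the AP-1 factor c-Jun, stood at 136 and 173 FPKM (0.35). Rnf181 stood at 114 and 143 FPKM (0.32). Rnf10, which marks proteins of the small ribosomal subunit on stalled ribosomes, stood at 116 and 81.2 FPKM (-0.51). Trim28, the KAP1 corepressor recruited by KRAB zinc finger proteins, stood at 101 and 88.4 FPKM (-0.19), and Trim47 at 38.9 and 29.9 FPKM (-0.37). The positive ratios of Rnf187 and Rnf181 turned negative with equal sums of FPKM, as did those of Rnf14, Rnf121, Rnf123, Trim24 and Trim37, 7 in all. Of the 4 TRIM genes at that level, Trim35, at 62.3 and 19.6 FPKM (-1.62), and Trim8, described below, were at least 2-fold lower. Rnf149 was among the RNF genes that did so, at 76.7 and 21.3 FPKM (-1.80), although 26.9% of the 50-base words of its transcript also occur in other genes, Gm15832 foremost.

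RNF genes of DNA damage signalling and chromatin were all below 0, and 7 of 9 were at least 2-fold lower (median -1.34), beside 29.8% of all genes. After centring on the median gene 5 of 9 were. The group's median transcript, at 4460 bases, falls in the longest class of genes described below, of which 48.0% were lower. Rnf8 and Rnf168 act in sequence at DNA breaks, marking histones to recruit repair proteins, and Rnf169 binds the same marks. Rnf8 stood at 16.8 and 5.64 FPKM (-1.42), with 30.7% of its words shared with other genes, Gm28043 foremost. Rnf168 stood at 12.3 and 3.79 FPKM (-1.48). Rnf169 stood at 8.82 and 0.35 FPKM, a log2 ratio of -2.86 and a ratio of 25.2 without the pseudocount. Of the genes of this break response Rnf169 thus had the lowest ratio. Rnf111 (Arkadia), which targets SUMO-modified proteins and promotes TGF-beta signalling by degrading Ski and SnoN, stood at 8.34 and 0.94 FPKM (-2.27). Rnf4, the other ligase of SUMO-modified proteins in the group, stood at 67.4 and 26.0 FPKM (-1.34). The Polycomb ligase Rnf2 (RING1B), which marks histone H2A, stood at 20.5 and 9.67 FPKM (-1.01). Rnf20 and Rnf40 form the complex that marks histone H2B and lay close together: Rnf20 stood at 25.3 and 11.7 FPKM (-1.05) and Rnf40 at 22.5 and 11.2 FPKM (-0.95), which is past 2-fold without the pseudocount. Rnf138, which acts at DNA ends during resection, had the smallest difference of the group, at 8.39 and 4.73 FPKM (-0.71).

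Among RING-between-RING ligases, which take the ubiquitin onto themselves before passing it on, 3 of the 6 compared (8 listed) were at least 2-fold lower (median -1.31). Over all genes 29.8% were. The close relatives Rnf19a and Rnf19b both stood lower: Rnf19a at 14.1 and 1.32 FPKM (-2.71) and Rnf19b at 31.9 and 5.17 FPKM (-2.41). Rnf217 stood at 10.4 and 2.58 FPKM (-1.66). Rnf216 stood at 9.96 and 4.68 FPKM (-0.95), which is past 2-fold without the pseudocount. Rnf31 (HOIP), the catalytic subunit of the linear ubiquitin chain complex of NF-kappaB signalling, stood at 5.94 and 4.26 FPKM (-0.40). Rnf14, which acts with Rnf25 on stalled ribosomes, stood at 17.3 and 18.7 FPKM (0.11). Its partner Rnf25, counted with the cytosolic group, stood at 36.9 and 9.11 FPKM (-1.91), so the 2 ligases of that pathway lay far apart.

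Membrane-anchored RNF genes had the widest range, with 8 of the 13 compared (24 listed) at least 2-fold lower (median -1.68). The share of all genes that were lower was 29.8%. Rnf145, a sterol-responsive ligase of the endoplasmic reticulum that targets HMG-CoA reductase, had the lowest RNF ratio, at 18.4 and 1.57 FPKM (-2.92). That rank depends on the setting: at a pseudocount of 0.1 Rnf145 was at -3.47 and Rnf169 at -4.31, and with the TMM factor they were at -2.67 and -2.75. Rnf139 (TRC8), another sterol-linked ligase of that membrane, stood at 10.0 and 2.44 FPKM (-1.68). Rnf26, which organises endosomes around the nucleus, stood at 20.8 and 2.91 FPKM (-2.48), and its value is uncertain because 90.9% of its 50-base words are shared with the gene model Gm49380. Rnf24 stood at 9.78 and 1.36 FPKM (-2.19) and Rnf103 at 28.7 and 6.23 FPKM (-2.04). At the other end, Rnf5 stood at 18.6 and 37.7 FPKM, a ratio of 2.03 without the pseudocount and a log2 ratio of 0.98 with it, just inside 2-fold. Rnf5 and Rnf185 are paralogues that degrade proteins of the endoplasmic reticulum membrane, and Rnf185 stood at 9.04 and 1.99 FPKM (-1.75), on the other side of 0. Of the Rnf5 words, 13.3% are shared with other genes, Gm18101 foremost. Rnf13 and Rnf167, of the protease-associated-domain ligases that include Rnf149, also parted: Rnf13 stood at 14.1 and 19.8 FPKM (0.46) and Rnf167 at 12.8 and 6.91 FPKM (-0.80). Rnf121, a Golgi ligase, stood at 14.5 and 18.3 FPKM (0.32), and Rnf215 at 23.3 and 21.7 FPKM (-0.10). Rnf170, a ligase of the IP3 receptor, stood at 5.10 and 1.66 FPKM (-1.20), with 21.1% of its words shared with other genes, Rnf170-ps foremost.

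The other cytosolic and nuclear genes had the smallest share lower of the RNF groups, 10 of the 23 compared (29 listed, median -0.51). This was 43.5%, beside 29.8% of all genes. Rnf44 stood at 20.8 and 3.66 FPKM (-2.22). Rnf135 (Riplet), a ligase of the RNA sensor RIG-I, stood at 7.70 and 1.48 FPKM (-1.81), and the spliceosome-linked Rnf113a1 at 5.56 and 0.99 FPKM (-1.72). Rnf146, which marks axin once it carries poly-ADP-ribose and so promotes Wnt signalling, stood at 19.0 and 6.11 FPKM (-1.49). Rnf41, a regulator of ErbB3, stood at 17.2 and 5.90 FPKM (-1.40), and Rnf11 at 57.4 and 21.5 FPKM (-1.37). Rnf220 (-1.28) and Rnf6 (-1.16) were also past 2-fold. A pair of paralogues showed little difference: Rnf126, which marks mislocalised membrane proteins, stood at 57.9 and 53.3 FPKM (-0.12), and Rnf115 at 12.6 and 9.82 FPKM (-0.33). Rnf7, the RING subunit of cullin 5 ligases, stood at 47.5 and 38.7 FPKM (-0.29), with 30.7% of its words shared with transcripts of other genes, Emb foremost. Rnf123 (KPC1), a ligase of the cell cycle inhibitor p27, stood at 6.70 and 7.83 FPKM (0.20), and Rnf141, with 12.2% of its words shared, at 7.92 and 7.62 FPKM (-0.05). Rnf114, Rnf214, Rnf34, Rnf225 and Rnf166 lay between -0.72 and -0.13.

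**Figure D2:**
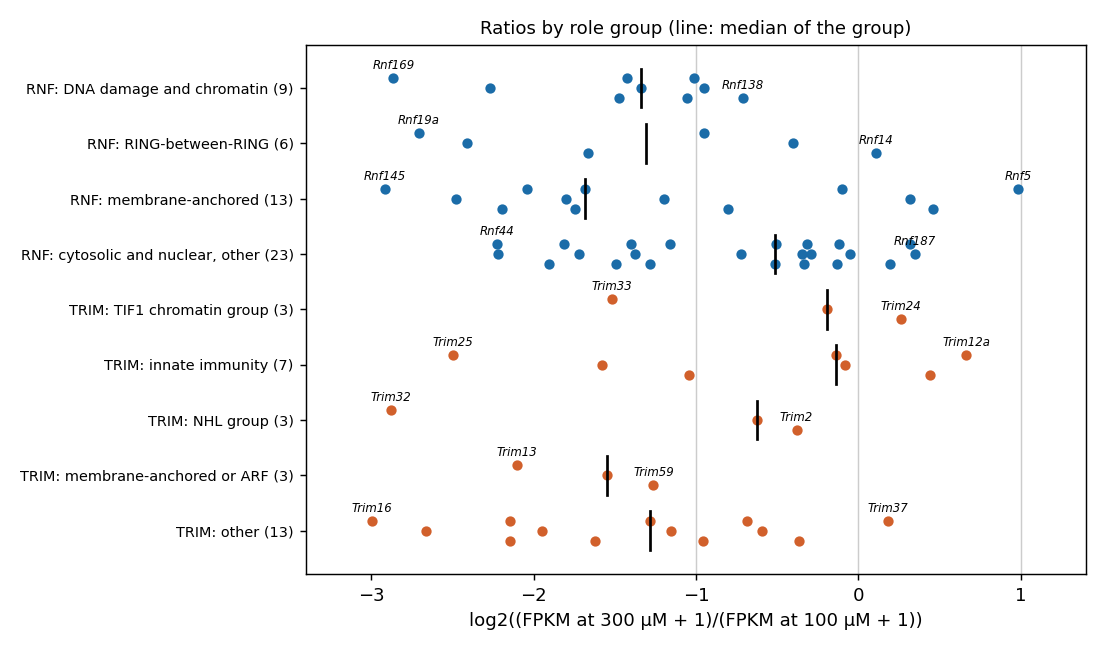
Log2 ratio of each of the 80 members by role group, RNF in blue and TRIM in orange, with points spread vertically for legibility, the lowest and highest member named and a black line at the group's median. The membrane-anchored RNF group runs from Rnf145 at -2.92 to Rnf5 at 0.98, while all 9 genes of the DNA damage and chromatin group lie below 0.

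Ratios differed within TRIM subfamilies. The 3 compared genes of the TIF1 group, chromatin proteins with a bromodomain, spanned from -1.52 to 0.27 (median -0.19). Trim33 (TIF1 gamma), which acts on Smad4, stood at 3.29 and 0.50 FPKM, whereas Trim24, a ligase of p53, stood at 2.91 and 3.70 FPKM, and Trim28 was given above. Of the NHL group, Trim32 stood at 20.6 and 1.94 FPKM (-2.88), while Trim3 stood at 10.8 and 6.66 FPKM (-0.62) and Trim2 at 2.24 and 1.49 FPKM (-0.38). Within both subfamilies a single gene of the 3 compared was thus past 2-fold, beside 29.8% lower over all genes. All 3 genes of the membrane-anchored and ARF group were at least 2-fold lower. Trim13, of the endoplasmic reticulum, stood at 9.0 and 1.33 FPKM (-2.10), with 14.5% of its words shared with other genes. Trim23, which carries an ARF GTPase domain, stood at 5.92 and 1.37 FPKM (-1.55), and Trim59 at 27.6 and 10.9 FPKM (-1.26). Of 6 listed genes of the COS-box group, which binds microtubules, 0 passed the level filter, and the muscle genes Trim54 and Trim63 were at most 0.06 FPKM. The group holds only genes with a numbered TRIM symbol, so relatives with other symbols are outside it. Among genes that once carried a TRIM symbol, Mid1 stood at 9.61 and 4.68 FPKM (-0.90) and Mid2 at 4.42 and 2.26 FPKM (-0.73).

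TRIM genes of innate immunity went in both directions, with 3 of the 7 compared (16 listed) at least 2-fold lower (median -0.14). Over all genes 29.8% were. After centring on the median gene 2 of the 7 were lower, beside 22.3% of all genes. Trim25, the ligase that activates RIG-I, stood at 12.9 and 1.46 FPKM (-2.50). Trim56, which acts on the cGAS-STING pathway, stood at 4.47 and 0.83 FPKM (-1.58), and Trim26 at 21.4 and 9.91 FPKM (-1.04). Trim25 and Rnf135, both ligases of RIG-I, were thus both lower. The highest TRIM ratios were those of Trim12a, at 1.54 and 3.03 FPKM (0.67), and Trim30a, at 0.99 and 1.70 FPKM (0.44). Trim68 stood at 3.59 and 3.33 FPKM (-0.08). Trim12a and Trim30a lie on chromosome 7, where Trim6, Trim34a, Trim5, Trim12a, Trim34b and Trim12c are adjacent coding genes in RefSeq, as are Trim30b, Trim30c, Trim30a and Trim30d. These copies are alike: 31.2% of the words of Trim12a and 32.7% of those of Trim12c occur in other genes, Trim5 foremost, so the split of reads among them is uncertain. At the estimated depth, Trim12a rested on about 42 and 86 fragments, and the 95% counting interval of its ratio ran from 0.31 to 1.03. Its neighbour Trim12c stood at 1.12 and 0.93 FPKM, with an interval from -0.39 to 0.11. Such intervals are exact binomial ones for a given transcript length and cover counting error only.

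The remaining TRIM genes had 8 of the 13 compared (27 listed) at least 2-fold lower (median -1.29), beside 29.8% of all genes. They held the gene with the lowest ratio at a pseudocount of 1. Trim16, which joins galectin-3 in clearing damaged endomembranes, stood at 14.1 and 0.89 FPKM (-3.00, counting interval -3.18 to -2.81). Its interval overlapped those of Rnf145 and Rnf169, and at a pseudocount of 0.1 it was at -3.84, above Rnf169. Trim8 stood at 39.8 and 5.44 FPKM (-2.66). Trim7 stood at 12.3 and 2.01 FPKM and Trim39 at 12.9 and 2.13 FPKM, both with a ratio of -2.15. Trim7 and its adjacent gene on chromosome 11, Trim41, differed in size: Trim41 stood at 9.67 and 4.50 FPKM (-0.96). Trim11 stood at 31.3 and 7.36 FPKM (-1.95) and Trim27 at 22.2 and 8.5 FPKM (-1.29). Trim37, a ligase of peroxisomes and centrosomes, was the only gene of this group above 0, at 7.82 and 9.03 FPKM (0.19). Trim45 stood at 2.0 and 0.35 FPKM (-1.15), and Trim44 at 2.95 and 1.62 FPKM (-0.59).

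Other genes of the ubiquitin pathway, listed from textbook knowledge, were read beside the members. Over all genes 29.8% were lower and 6.09% higher. RING ligases with other names resembled them in their counts, with 28 of 52 at least 2-fold lower and 0 higher (53.8% lower, median -1.07). That list is not separate from the families. By synonym, Rlim, Rc3h2, Birc2, Birc3, Znrf1 and Uhrf1 once carried RNF symbols, and Mid1, Mid2 and Pml TRIM symbols. Rlim, a nuclear ligase whose older symbol is Rnf12, was the lowest, at 33.2 and 1.93 FPKM (-3.54), and Dtx3 the highest, at 13.8 and 28.3 FPKM (0.98). HECT ligases had 8 of 21 lower and 1 higher (median -0.69), with Arel1 at -2.31 and Nedd4l at 1.02. The E1 and E2 enzymes had 9 of 34 lower (26.5%) and 2 higher (median -0.54), from Ube2g1 at -1.91 to Ube2e2 at 1.97. The list named cullin ligase core also held genes that are not shared subunits. Among these were the substrate receptor Skp2, Cand1 (-1.38), Dcun1d1 (-1.12) and Nedd8 (0.68). Of the 16 genes of that list, 4 were lower (25%) and 0 higher (median -0.28), from Skp2 at -2.53 to Elob at 0.89. The next lowest was Cul5 at -1.39. The list summed to 1430 and 1832 FPKM. The difference between these lists was not tested.

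**Figure D3:**
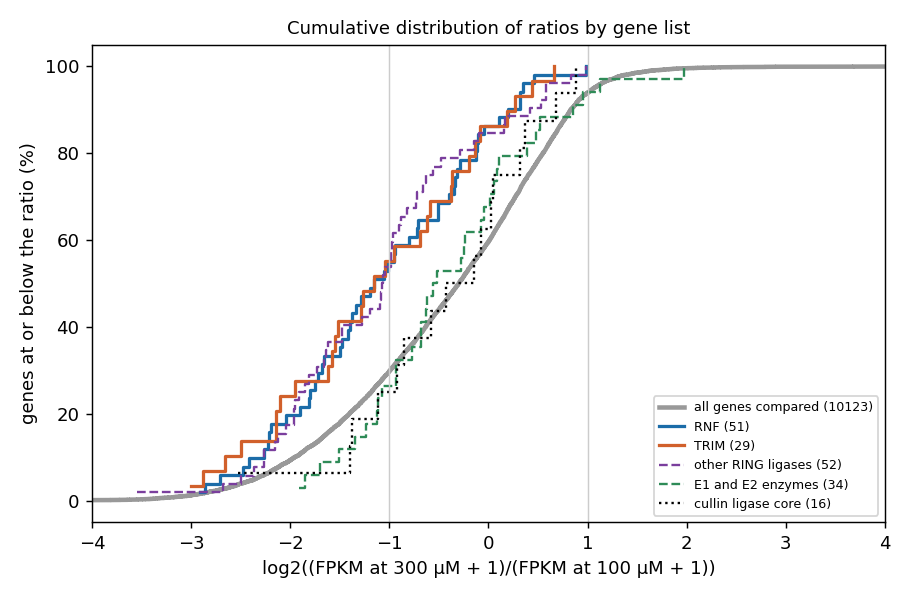
Share of genes (%) at or below each log2 ratio, for RNF (blue), TRIM (orange), RING ligases of other names (purple dashes), E1 and E2 enzymes (green dashes), the cullin ligase core (black dots) and all 10123 genes compared (grey), with vertical lines at 2-fold. The RNF and TRIM curves overlap and reach 54.9% and 55.2% at 2-fold lower, while the E1 and E2 curve reaches 26.5% there, near the 29.8% of all genes.

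Transcript length and level were set beside the ratio. Over all genes compared, long transcripts had lower ratios (Pearson's r of -0.39 with log2 length, n = 10093), and the same held across the 51 RNF genes (r of -0.46) but not across the 29 TRIM genes (r of -0.04). These points share both libraries and are given as a description. RNF genes that were at least 2-fold lower had a median transcript of 3750 bases and the other RNF genes one of 2678 bases, and their 3' UTRs had medians of 1933 and 1022 bases. For TRIM the transcript medians were 3498 and 3740 bases. With all genes divided by length into 4 classes of like size, the members had the larger share lower in each: 25% of 12 members against 11.5% of all genes in the shortest class, 57.1% of 14 against 24.8% and 59.5% of 37 against 35.2% in the middle classes, and 64.7% of 17 against 48.0% in the longest. The r of the ratio with log2 (mean FPKM + 1) was 0.26 over all genes, 0.39 in RNF and -0.26 in TRIM. By level, 47.4% of 19 members were lower at a mean of 1 to 5 FPKM (36.6% of all genes), 65.1% of 43 at 5 to 20 FPKM (38.3%) and 38.9% of 18 at 20 FPKM or more (14.5%). With the trend of all genes with length and GC content removed, the medians were -0.92 for RNF and -0.86 for TRIM, against -1.16 and -1.15. The classes differ in size, and whether length or level accounts for any part of the members' ratios was not tested.

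Exon number went with the ratio in TRIM. Across the 29 TRIM genes Pearson's r between log2 (exon number + 1) and the ratio was 0.47, against 0.14 in RNF and 0.09 over all genes. All 4 TRIM genes with 1 to 3 exons (Trim32, Trim13, Trim56 and Trim59) were at least 2-fold lower, as were 9 of 17 with 4 to 9 exons and 3 of 8 with 10 or more. Of 6 RNF genes with 1 to 3 exons 4 were lower, among them Rnf113a1 and Rnf26, whose representative transcripts have 1 exon. Over all genes 49.1% of those with 1 to 3 exons were lower, against 28.3% with 4 to 9 and 26.3% with 10 or more.

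**Figure D4:**
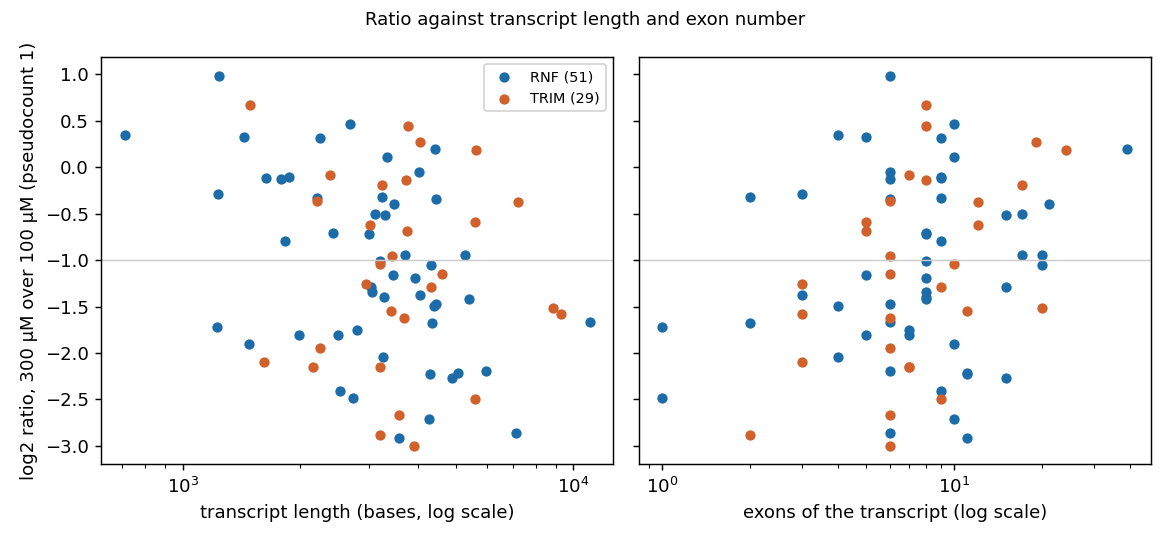
Log2 ratio of the 51 RNF (blue) and 29 TRIM (orange) genes against transcript length in bases and against exon number of the representative transcript, both on log axes, with a line at 2-fold lower. Short RNF transcripts lie higher in the left panel (r of -0.46), and TRIM genes with few exons lie lower in the right panel (r of 0.47).

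At the level filter, Trim12c (mean 1.03 FPKM) and Trim62 (mean 1.04 FPKM) were the members just inside, and Rnf122 (0.96 FPKM) and Trim36 (0.93 FPKM) those just outside. Trim62 stood at 1.51 and 0.56 FPKM, Rnf122 at 1.78 and 0.13 FPKM and Trim36 at 1.36 and 0.50 FPKM. The 25 RNF and 35 TRIM genes outside averaged less than 1 FPKM, and 6 and 9 of them were listed at 0 in both libraries. Of the 80 members compared, 53 shared no 50-base word with another gene and 10 shared at least 10% of theirs. Without those 10, 24 of 44 RNF and 15 of 26 TRIM genes were at least 2-fold lower, an alternative chosen after seeing the data. The share over all genes was 29.8% with no gene left out and was not computed under the same exclusion.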

How the data were processed

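RNA sequencing of MC3T3-E1 cells gave 1 table per dose (1 library at 100 µM, 1 at 300 µM formaldehyde). The authors deposited gene-level FPKM values with 2 decimals, as a column named so in the file headers. The submitters' processing notes list Bowtie2 and RSEM. Which genome build was used is not given in the sources used here. FPKM is relative to a library's total, and RSEM divides reads among isoforms and near-identical copies.

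NCBI gene numbers were matched to symbols in RefSeq (GRCm38.p6; 17179 of 17215) and then GENCODE M21 (6 more). Log2 ratios used a pseudocount of 1, which understates changes of low genes. No test was possible with 1 library per dose. Transcript properties came from 1 representative GENCODE M21 transcript per gene (10093 of 10123 genes compared, all 80 members). Shared 50-base words were counted against all other genes' transcripts. Depth came from FPKM times length among short single-transcript genes: at steps of 54 and 52.5 bases per read, 61.7% and 70.4% of low values lay within 0.12 reads of a whole number. The calculation was tested on simulated data.

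The members, role groups and lists were chosen with earlier results of these data known. Every member could be named; described in full were the 8 RNF and 5 TRIM genes furthest in each direction, the 3 most abundant of each family, those nearest the filter and members of each role group. Of the other lists, the furthest in each direction were named. The values of 1 RNF gene are not reported here, though counts and medians include it. Alternatives were other pseudocounts, filters, thresholds and scales, removal of the trend with length and GC content, and older symbols. Leaving out members with at least 10% shared words was chosen after seeing the data. Software was Python 3.11.15 with scipy 1.17.1, numpy 2.4.6, matplotlib 3.10.9 and pandas 2.3.3.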

Additional observations from a re-analysis of the deposited data

How the results depend on the processing

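Of the 44 members at least 2-fold lower, 9 lost that call after centring, 9 with the TMM factor, 11 at a pseudocount of 5 and 8 with the length and GC trend removed. Rnf20, Rnf2, Trim26 and Rnf170 lost it under each of these settings. Calls gained were 4 at a pseudocount of 0.1, 6 with equal sums and 1 with the trend removed. None of the 44 changed sign, but pseudocounts and filters cannot change a sign, and the scale shifts are below 1 log2 unit. The count of RNF genes lower (28) was 15 of 30 at a mean of at least 10 FPKM and 17 at a 3-fold threshold, and that of TRIM genes (16) was 7 of 9 and 9; fewer genes or a stricter bound are compared there. It stayed within 1.5 times of the main count under the other alternatives (22 to 39 RNF and 11 to 20 TRIM genes), but the number of genes compared was not always the same. With older symbols 39 of 69 RNF and 16 of 33 TRIM genes were lower, and without the filter 29 of 76 and 17 of 64. Of these alternatives, the share over all genes is given only for centring and equal sums. The count of RNF genes higher (0) was 1, Rnf5, with a pseudocount of 0.1, after centring on the median gene, with the TMM factor and at 1.5-fold, where 1 TRIM gene was higher too. The RNF median (-1.16) was -1.20 and -0.82 with pseudocounts of 0.1 and 5, -0.41 without the filter, -0.98 at a mean of at least 10 FPKM, -0.86 after centring, -0.79 with the TMM factor, -1.42 with equal sums, -0.92 with the length and GC trend removed and -1.11 without members that share words. The TRIM median (-1.15) was -1.33, -0.63, -0.16, -1.29, -0.85, -0.90, -1.38, -0.86 and -1.21 under the same settings in that order, and -0.96 with older symbols. Without the filter, genes near 0 FPKM pull both medians towards 0; the cause of the other shifts was not tested. No paired analysis was possible because each dose has 1 library. Depth limits the low members: 31 fragments are estimated for Trim45 and 23 for Rnf113a1 at 300 µM.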

Other observations

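Genes that once carried an RNF or TRIM symbol are left out by the naming rule, although several are close relatives of the members. By synonym 26 such genes were listed and 22 had a mean of at least 1 FPKM. Among them Rlim was followed by Ubox5, a U-box ligase (8.58 and 0.12 FPKM, -3.10), Msl2, a ligase of the MSL histone acetylation complex (7.78 and 0.40 FPKM, -2.65), and Rc3h2 (roquin 2), which also binds RNA (9.16 and 0.80 FPKM, -2.50). Obi1, the former Rnf219, which acts at replication origins, stood at 7.02 and 0.76 FPKM (-2.19). Uhrf1, the former Rnf106, which reads hemimethylated DNA, stood at 39.1 and 59.1 FPKM (0.58). Synonyms can be shared in error: Brd2 and Ptgfrn, which are not RING ligases, came in by this route.

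Below the level filter, Trim72, a membrane repair gene of muscle, stood at 1.68 and 0.04 FPKM, and Trim43b at 0.28 and 1.47 FPKM. Rnf144b stood at 0.90 and 0.30 FPKM and Trim21 at 1.39 and 0.35 FPKM.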
